A study of Caenorhabditis elegans with 4 samples.

Results

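Chromosome IV of the early Caenorhabditis elegans embryo carried 667 shared domains of RNA polymerase II, of 3852 on the 6 nuclear chromosomes. A shared domain is a peak of replicate 1 on chromosome IV that overlaps a peak of replicate 2 by at least 1 bp, so the domains were chosen by the overlap of measured peaks, and their being found in both replicates is not a result. They come from 2 chromatin immunoprecipitation (ChIP-seq) libraries, replicates 1 and 2, made from mixed male and hermaphrodite early embryos of the wild-type N2 strain at 20 °C with the mouse monoclonal antibody 8WG16. The series also holds 2 input DNA samples from the same kind of embryos, which were not analysed here. A further list, called over the whole series, serves as a second view and is not independent of the replicates. The labels do not say that the replicates came from separate embryo preparations, and the embryos were whole, so the lists mix all cell types of the stage.

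RNA polymerase II makes messenger RNA and many small RNAs. The antibody binds mainly the unphosphorylated tail of its largest subunit, the form that is loaded at promoters before the tail is phosphorylated during transcription. Worm genes are compact and close together, and many lie in operons, groups of genes transcribed from a single promoter, so that polymerase can lie over several neighbouring genes in a row. The autosomes of this worm have gene-rich centres of low recombination and arms that are richer in repeats. Chromosome IV also holds most of the worm's piRNA genes, short units that polymerase II transcribes one by one in the germ line. Genes are not named below, because the gene table at hand follows another genome build (WBcel235) than the lists (WormBase WS220), and for the same reason the embryo stage was not checked against marker genes. All positions are on chromosome IV in WS220, counted from 1, with no strand.

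The overlap rule kept 667 of 735 replicate 1 peaks on chromosome IV, or 90.7%, beside 88.7% over all 6 nuclear chromosomes. Just inside the rule lay the domain from 13283346 to 13285452, which shared 59 bp with replicate 2, and the domain from 2645006 to 2646918, which shared 81 bp. The next 3 shared between 157 and 180 bp. Just outside lay the peak from 1602575 to 1603977, which lay 3 bp from a replicate 2 peak, and the peak from 1606488 to 1607740, at 64 bp. Another 3 unmatched peaks lay within 73 to 152 bp of one. Most domains were far from this border, since 647 of 667 (97.0%) were overlapped over at least 50% of their length and 348 (52.2%) over all of it.

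The shared domains stood at 38.1 per Mb of chromosome IV and covered 2.08 Mb, or 11.9% of its length. Chromosomes III, I and II carried more, with 54.7, 52.1 and 44.0 per Mb, and V and X carried fewer, with 25.2 and 25.1 per Mb. The replicate lists gave 42.0 and 55.2 peaks per Mb of chromosome IV for replicates 1 and 2, and the series-wide list 184 shorter peaks per Mb. With 2 libraries of a single group the design allows no test across samples, and windows, domains and chromosomes are not replicates, so all comparisons here are descriptions without a p-value. Sequencing depth is unknown, because the lists hold no read counts.

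Along chromosome IV the domains thinned out unevenly toward the right end. In 70 windows of 250 kb (the last of 244 kb), counted by domain midpoint, the number of shared domains ran from 3 to 21 with a median of 9, and no window was empty. Spearman's rho between window position and count was -0.32 (Pearson's r -0.29, n = 70 windows). It was -0.38 for the peaks of replicate 1 and -0.31 for those of replicate 2, each list alone, and -0.44 for the series-wide list. The windows of a list share a library and neighbouring windows are adjacent DNA, so these values describe the lists only. The slope leaned on the right end. Without the last 10 windows rho was -0.15 for the shared domains and -0.32 for the series-wide list, and without the first 10 it was -0.25 for the shared domains.

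**Figure D1:**
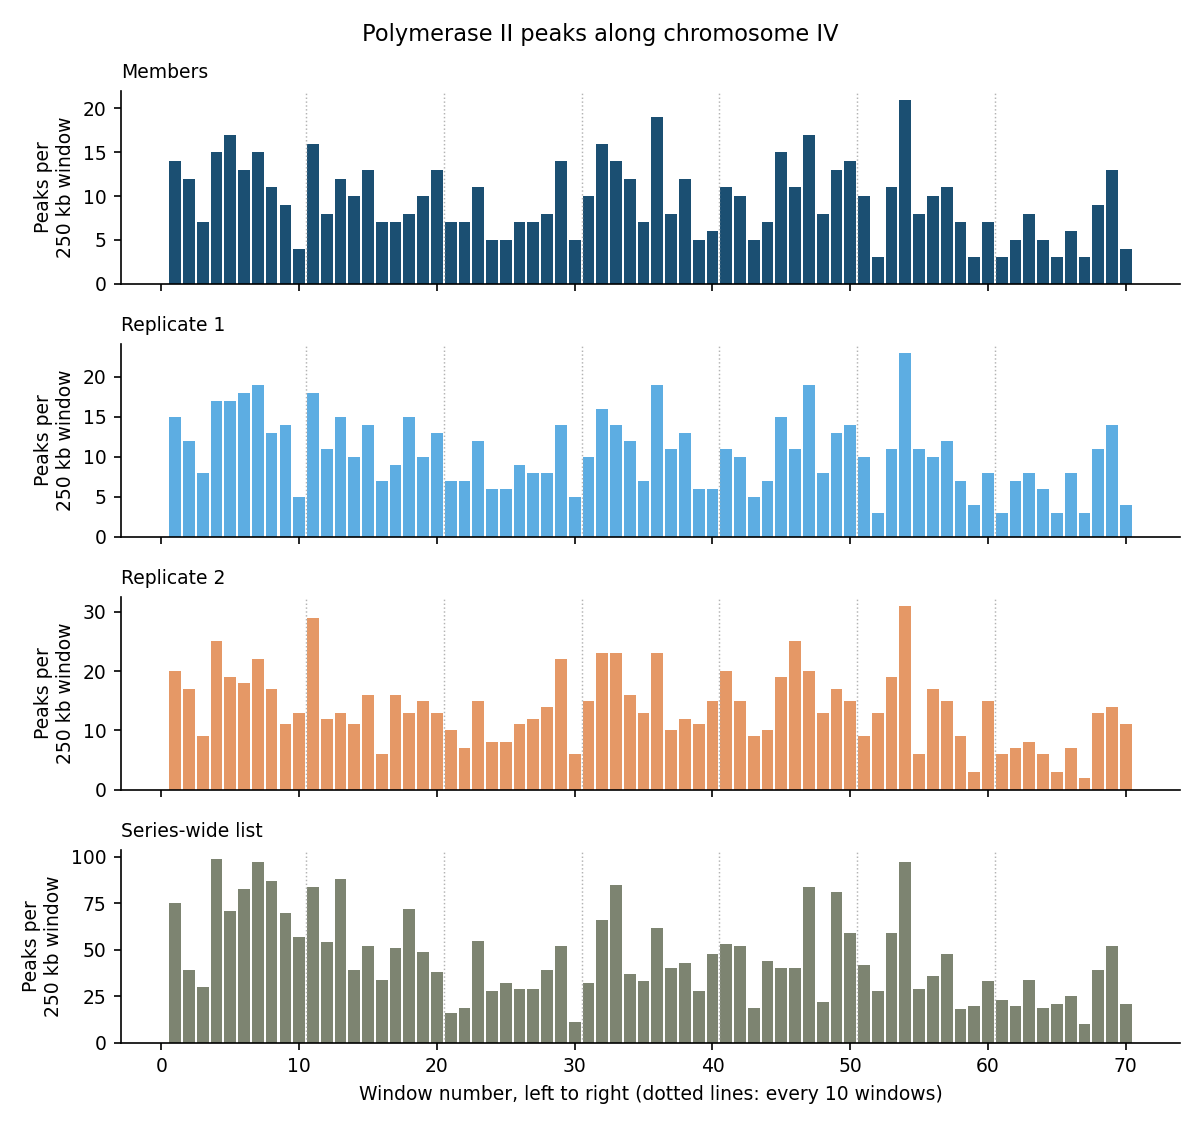
Peaks per 250 kb window of chromosome IV (vertical axes, counts) against window number from left to right, for the shared domains (members), the replicate 1 and replicate 2 lists and the series-wide list. Window 54 reaches 21 shared domains, and in the last 10 windows the highest bar is that of window 69, with 13.

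Divided into 7 stretches of 10 windows, the chromosome showed high, low, high and low density in turn and not an even slope. From left to right the stretches held 117, 104, 76, 109, 111, 91 and 59 shared domains, which is 46.8, 41.6, 30.4, 43.6, 44.4, 36.4 and 23.7 per Mb. The dip in the third stretch (5 to 7.5 Mb) and the drop in the last (15 Mb to the end) appeared in both replicates. Replicate 1 had 32.8 and 26.9 peaks per Mb in these stretches, and replicate 2 had 45.2 and 30.9. The other 5 stretches held 39.6 to 55.2 peaks per Mb in replicate 1 and 54.8 to 68.4 in replicate 2. The series-wide list had its lowest densities in the same stretches, 124 and 106 per Mb, against 164 to 283 per Mb in the others.

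Cover followed another order than number. Bases under shared domains were most frequent in the fifth stretch (10 to 12.5 Mb), at 16.3%, where the median width was 2637 bp, the highest of the 7. The first stretch was the richest in domains but had 12.3% of its bases under them and a median width of 1887 bp. The third stretch had 10.3% and the last 7.73%. The median gap between neighbouring domains was 3771 bp in the second stretch and 24325 bp in the last, with 5588.5, 13495, 10518.5, 6663 and 6780 bp in the other 5 in order from left to right.

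**Figure D2:**
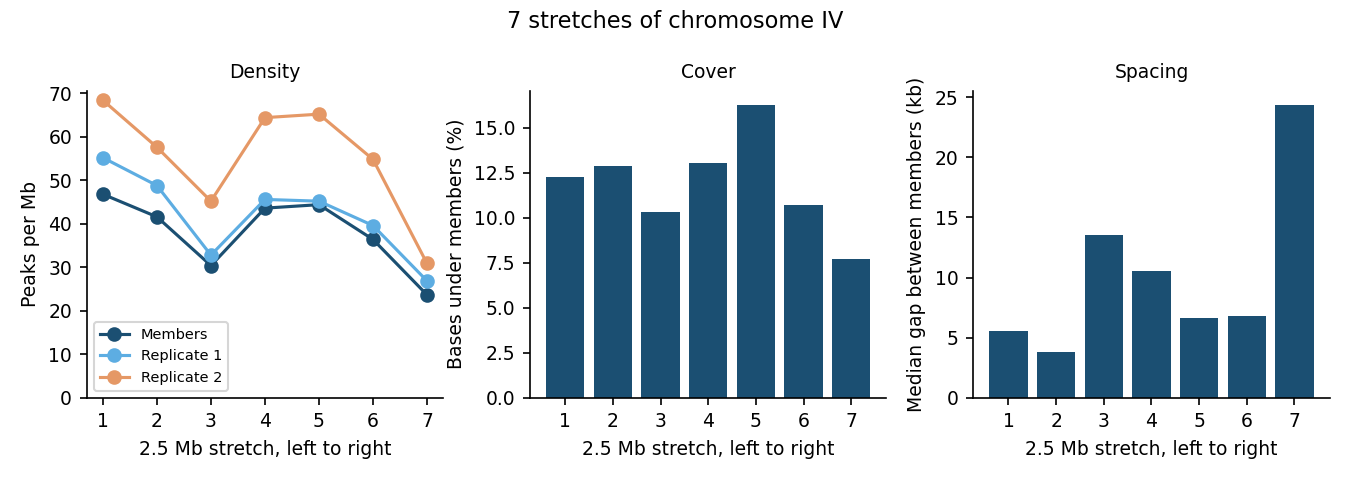
For 7 consecutive 2.5 Mb stretches of chromosome IV, left to right: peaks per Mb in the shared domains (members) and in each replicate (lines), bases under shared domains in percent (bars), and the median gap between neighbouring shared domains in kb (bars). Density dips in stretch 3 and is lowest in stretch 7 in both replicates, while cover is highest in stretch 5, at 16.3%.

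Left of the midpoint of chromosome IV there were 40.7 shared domains per Mb and right of it 35.6, a log2 ratio of 0.19. The ratio was 0.26 in replicate 1 alone, 0.21 in replicate 2 alone and 0.40 in the series-wide list, so all 4 views had more peaks on the left. The shared domains are part of the replicate 1 list, and the series-wide list comes from the same series. The 4 views are therefore not independent. In covered bases the sides were nearly level, with 12.2% on the left and 11.6% on the right (log2 ratio 0.071). The domains on the right were somewhat wider, with a median of 2008 bp on the left and 2278 bp on the right. Of the left domains 12.9% (46) and of the right domains 17.7% (55) exceeded 5 kb. Peaks over 5 kb had the same order in each replicate list. They made up 12% on the left and 17.7% on the right in replicate 1, and 15.8% and 20.1% in replicate 2. Median widths were 1919 and 2190 bp in replicate 1, and closer in replicate 2, at 2044 and 2118 bp. Domains up to 1.5 kb took a like share on both sides, 30.3% on the left and 31.5% on the right. In the replicate 2 list such narrow peaks were more frequent on the right, at 35.0% against 30.3%.

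Other chromosomes showed smaller or opposite contrasts between their sides. Chromosome IV had a log2 ratio of left to right of 0.19 for shared domains. Chromosome III had -0.25, with 50.1 per Mb on the left and 59.3 on the right, and chromosome I had -0.12. Ratios on II, V and X were -0.01, 0.01 and 0.06. Chromosomes I and III had fewer peaks on the left in all 4 lists, and the sign of II, V and X differed among lists. Among the 2.5 Mb stretches of IV the densest held 1.98 times as many domains per Mb as the sparsest, the last, which is a few kb short of full length. Without that stretch the sparsest of IV was the third, with 30.4 per Mb against 46.8 in the first. The ratio was 1.19 on I, 1.66 on II, 1.47 on III, 2.74 on V and 1.63 on X, where shorter remainders at the right end were left out, so the chromosomes are not ranked by it. No test over chromosomes was made, and nothing here is set apart as particular to IV.

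**Figure D3:**
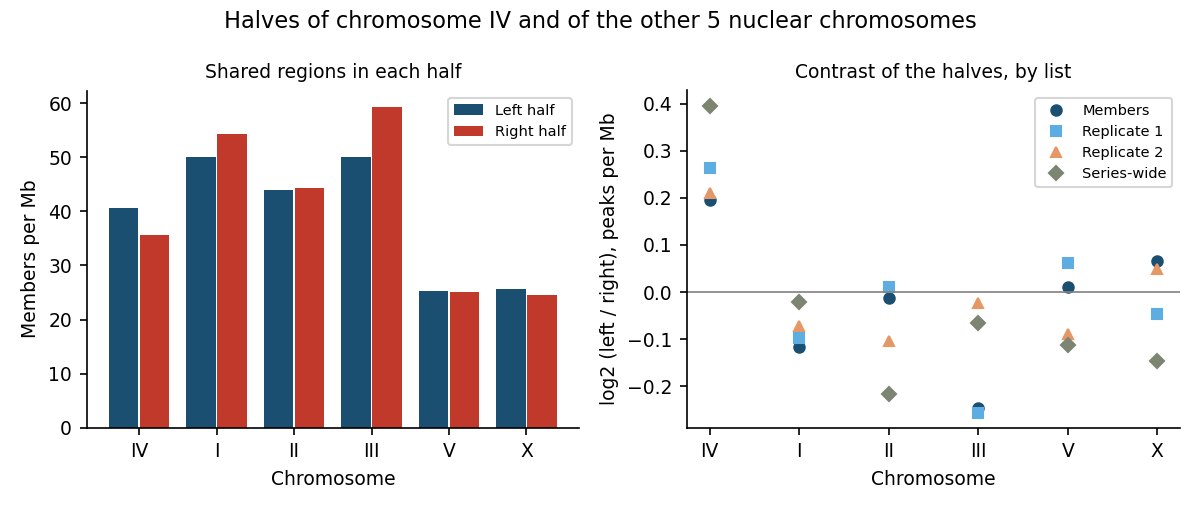
Left: shared domains per Mb left and right of the midpoint of each chromosome (bars), chromosome IV first. Right: log2 ratio of left to right density in each of 4 lists (points). All 4 points of chromosome IV lie above 0, from 0.19 to 0.40, and those of I and III lie below 0.

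The densest windows were scattered along the chromosome, and the 5 sparsest all lay right of 12.5 Mb. The window from 13.25 to 13.5 Mb held most shared domains, 21, with 23 peaks in replicate 1, 31 in replicate 2 and 97 in the series-wide list. Windows at 8.75 to 9 Mb (19 domains), 1 to 1.25 Mb (17), 11.5 to 11.75 Mb (17) and 2.5 to 2.75 Mb (16) came next, and the window at 7.75 to 8 Mb also held 16, with a cover of 23.8%. The one at 11.5 to 11.75 Mb had the largest cover of all 70, 28.4%, where the median window had 11.8%. At the other end, 5 windows held 3 domains each, at 12.75, 14.5, 15, 16 and 16.5 Mb (their left edges). The replicates differed in some of them. The window at 12.75 Mb had 3 peaks in replicate 1 and 13 in replicate 2, and its cover by shared domains, 1.96%, was the lowest of all. The windows at 14.5, 16 and 16.5 Mb had 3 or 4 peaks in replicate 1 and 2 or 3 in replicate 2. The window at 15 Mb had 3 and 6.

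Of the 14 windows with 5 or fewer shared domains, 6 lay in the last 2.5 Mb and 1 in the first. Of the 9 with 15 or more, none lay in the last 2.5 Mb and 3 lay in the first. These limits were set after the counts were seen. From 14.25 Mb to the end, 13 windows held 76 shared domains, 23.4 per Mb, with a median of 5 per window. The fullest there were the windows at 16.75 and 17 Mb, with 9 and 13 domains. Replicates 1 and 2 followed each other from window to window (Pearson's r 0.79, Spearman's rho 0.76, n = 70 windows), and neighbouring windows were only loosely alike (r 0.16 between the counts of a window and the next). The variance of the counts was 1.85 times their mean for shared domains, 1.97 in replicate 1 and 2.68 in replicate 2.

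Shared domains on chromosome IV had a median width of 2074 bp (interquartile range 1376.5 to 3781 bp, from 907 to 19224 bp). The medians of the other chromosomes lay between 2254 bp on X and 2432 bp on II. These widths use the edges of replicate 1. In the replicate 2 list I and X had lower medians than IV, 2054.5 and 2020 bp against 2070 bp. There II, III and V had higher ones, 2341, 2145.5 and 2185.5 bp. On IV, 206 domains (30.9%) were at most 1.5 kb wide and held 12.1% of the domain bases. Those of 1.5 to 3 kb numbered 231 (34.6%), those of 3 to 5 kb 129 (19.3%) and those of 5 to 10 kb 77 (11.5%). The 24 domains over 10 kb (3.60%) held 15.1% of the bases, and 13 of them lay left of the midpoint and 11 right of it. Width bore little relation to the neighbouring domains. Spearman's rho was 0.03 between the width of a domain and that of the next, and -0.05 between width and the gap to the nearest domain (n = 666 pairs and 667 domains).

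The widest shared domain lay near the right end. Replicate 1 placed it at 17101370 to 17120593 (19224 bp), and replicate 2 at 17101524 to 17122796 (21273 bp). It held 9 series-wide peaks, which covered 94.0% of it. The second spanned 7131235 to 7147671 (16437 bp) with the edges of replicate 1, and 7131261 to 7147733 (16473 bp) with those of replicate 2. The third and the fourth, from 6321590 to 6337438 (15849 bp) and from 5170483 to 5186329 (15847 bp), each formed part of a longer replicate 2 peak of 18065 and 17851 bp that also met another shared domain. The domain at 5170483 was a single unit in the series-wide list too, where 1 peak covered 97.4% of it.

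The fifth widest ran from 10665188 to 10680501 (15314 bp; 15368 bp in replicate 2) and the sixth from 15036267 to 15051452 (15186 bp; 15991 bp in replicate 2). Both stood at the edge of one of the longest empty stretches described below. The seventh, from 11567935 to 11582352 (14418 bp), was shorter in replicate 2, at 12564 bp. The eighth ran from 16481044 to 16495322 (14279 bp; 14978 bp in replicate 2). The ninth ran from 4437120 to 4451134 (14015 bp; 14212 bp in replicate 2). The tenth, from 4246728 to 4259616 (12889 bp), met 2 replicate 2 peaks that together span 12519 bp. Of these 10 wide domains, 6 lay in the third and the last of the 7 stretches, those with the fewest domains: the ones that begin at 5170483, 6321590, 7131235, 15036267, 16481044 and 17101370. All domains over 10 kb numbered 3, 4, 6, 1, 4, 2 and 4 by stretch from left to right. Over windows, the number of domains bore little relation to their median width (Pearson's r -0.11, Spearman's rho 0.06, n = 70 windows).

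**Figure D4:**
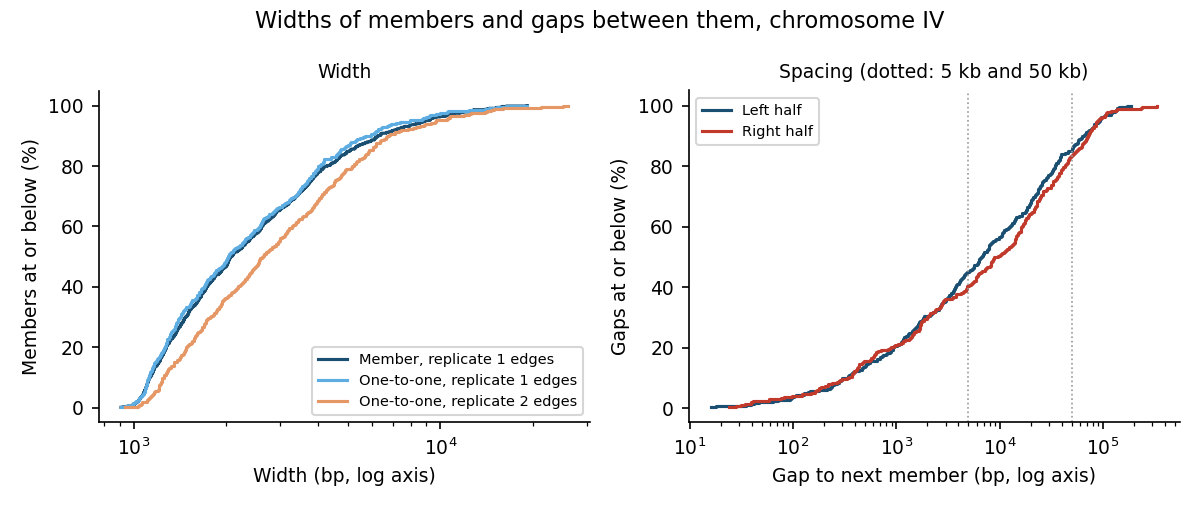
Left: cumulative share of domains (percent) by width on a log axis, for all shared domains and for one-to-one pairs with the edges of each replicate. Right: cumulative share of gaps (percent) by length on a log axis, left and right of the midpoint of chromosome IV. The replicate 2 curve of widths lies to the right of the replicate 1 curve, with medians of 2636 and 2027 bp.

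Gaps between neighbouring shared domains ran from 16 to 338265 bp, with a median of 7833.5 bp and a mean of 22913 bp. The standard deviation of the gaps was 1.53 times their mean. Some short gaps, the one of 16 bp among them, lay within a single replicate 2 peak. Short gaps thus depend in part on where replicate 1 draws its breaks. There were 43 gaps under 200 bp (6.46%), 95 of 200 bp to 1 kb (14.3%), 147 of 1 to 5 kb (22.1%), 155 of 5 to 20 kb (23.3%), 121 of 20 to 50 kb (18.2%), 80 of 50 to 100 kb (12%) and 25 of 100 kb or more (3.75%). Left of the midpoint 44.9% of gaps were under 5 kb and right of it 40.3%, with medians of 6737.5 and 9291 bp. The length of a gap showed almost no relation to that of the next (Spearman's rho 0.06, n = 665 pairs). Measured to the nearest domain on either side, the median distance was 1849 bp, and 85 domains (12.7%) stood more than 20 kb from any other. Those lone domains had a median width of 2461 bp.

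The median gap on chromosome IV, 7833.5 bp, lay between those of the dense and the sparse chromosomes. It was 3913 bp on III, 4500 bp on I, 5768.5 bp on II, 11228 bp on V and 18083 bp on X.

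Clusters, defined as 3 or more shared domains with gaps of at most 5 kb, numbered 66 on chromosome IV and took in 265 domains (39.7%) on 6.25% of the length. Of these clusters 37 lay left of the midpoint and 29 right of it. By stretch there were 15, 14, 3, 9, 12, 11 and 2 from left to right, so the third and the last of the 2.5 Mb stretches held the fewest clusters as well as the fewest domains. A cluster needs domains close together, so this order follows in part from the definition. A cluster had 4 domains at the median and 8 at most, and 31 had the least number, 3. Their median length was 14939.5 bp. Domains in clusters had a median width of 2040 bp, and the others 2174.5 bp. The share of shared domains in clusters was 56.0% on III, 52.4% on I, 49.3% on II, 34.7% on V and 24.3% on X. Some clusters on IV met a single replicate 2 peak, such as those from 176953 to 183782 and from 7990198 to 8004734, with 3 domains each. Such clusters rest on breaks that replicate 1 drew and replicate 2 did not.

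The 2 largest clusters had 8 shared domains each. The first, from 4747065 to 4781790 (34726 bp), had 63.4% of its bases under domains, which were 1012 to 5045 bp wide. In replicate 1 its domains were 3490, 5045, 2057, 4261, 1940, 1896, 2327 and 1012 bp wide, in order from left to right. Replicate 2 drew the same stretch as 7 peaks, and the series-wide list as 19. The third and the fourth domain shared a replicate 2 peak of 6434 bp, and the fourth also met one of 2104 bp together with the fifth. The second, from 2668497 to 2695988 (27492 bp), had 57.5% under domains of 1146 to 3851 bp and met 7 replicate 2 and 17 series-wide peaks. In it, the domains from 2670040 to 2672104 and from 2672147 to 2673370 lay 42 bp apart in replicate 1 and were a single peak of 3536 bp in replicate 2.

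The next 3 clusters had 7 shared domains each. One, from 17081035 to 17127047 (46013 bp), held the widest domain of the chromosome. The 6 other domains of that cluster were 1103 to 3584 bp wide. Another, from 1295869 to 1329604 (33736 bp), was the most filled of the 5, with 80.1% of its bases under domains, and met 10 replicate 2 peaks. The last of these, from 12604818 to 12622178 (17361 bp), held only domains of 994 to 2208 bp. Of its 7 domains, 6 shared a replicate 2 peak with a neighbour, so that replicate 2 had 4 peaks there. The number of domains in a cluster thus depends on where each list draws its breaks.

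Stretches of 50 kb or more without a shared domain numbered 105 on chromosome IV and took up 9.31 Mb, or 53.2% of it. They were spread evenly, with 53 left of the midpoint and 52 right of it. The share of length in such stretches was 34.3% on III, 38.3% on I, 46.1% on II, 67.9% on X and 69.9% on V. Many were not empty of peaks found in a single list. Counting peaks that lay wholly inside, 85 of the 105 on IV held no replicate 1 peak, 41 held no replicate 2 peak and 32 held neither. Only the 68 replicate 1 and 361 replicate 2 peaks without a counterpart could lie wholly inside. These counts, most of all that of replicate 1, thus follow in part from the definition. Series-wide peaks lay in the 105 stretches at 71.7 per Mb, against 184 per Mb over the chromosome, and 11 stretches held none. The value for the chromosome includes the 48.2% of series-wide peaks that met a shared domain. Such peaks cannot lie wholly inside these stretches, so a lower density there follows in part from the definition.

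The longest such stretch ran for 338265 bp, from 15051453 to 15389717. On its left stood the domain of 15186 bp that begins at 15036267 and on its right a domain of 990 bp. Inside lay no replicate 1 peak, a single replicate 2 peak of 1070 bp (15217733 to 15218802) and 7 series-wide peaks of 150 to 582 bp. The second, 239642 bp from 10425546 to 10665187, held 4 replicate 2 peaks, up to 4629 bp wide, and 8 series-wide peaks. It lay between 10 and 12.5 Mb, in the 2.5 Mb stretch whose cover was the highest, and ended at the domain of 15314 bp that begins at 10665188.

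The third longest, 232309 bp from 12796369 to 13028677, was of another kind, because replicate 2 listed 13 peaks in it and the series-wide list 38. Replicate 1 listed none there. The replicate 2 peaks stood in 2 groups near its ends, 9 from 12815498 to 12860763 and 4 from 12998550 to 13012259, and the widest that lay wholly inside was 10286 bp. A further replicate 2 peak, from 13012554 to 13037677 (25124 bp), belonged to the domain on the right and reached into this stretch, where 11 of the 38 series-wide peaks lay under it. The fourth longest, 187924 bp from 3825366 to 4013289, held 1 replicate 2 peak, of 8128 bp (3854290 to 3862417), and 9 series-wide peaks, of which 8 met that peak.

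Emptiness in both replicates was clearest in the fifth longest, 171911 bp from 4890915 to 5062825, with no peak of either replicate and 1 series-wide peak. It was also the longest stretch free of both replicate lists, at 171723 bp when the replicate 2 edges of the flanking domains are taken. Of the other 5 among the 10 longest, those from 2033334 to 2177322 (143989 bp), from 16505448 to 16645156 (139709 bp), from 16658323 to 16796933 (138611 bp) and from 6155595 to 6293626 (138032 bp) held no peak of either replicate and 2 to 4 series-wide peaks. The one from 4512069 to 4650307 (138239 bp) held 3 replicate 2 peaks. Between the 2 that begin at 16505448 and 16658323 stood only 2 domains, 11870 and 1237 bp wide.

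At the ends of the chromosome, the first shared domain ran from 120359 to 122093 (1735 bp) and the last from 17456645 to 17461923 (5279 bp; 5401 bp in replicate 2). The last listed base of any list was 17493830, so 31907 bp lay beyond the last domain and 120358 bp before the first. That base was taken as the end of the chromosome, and it was not checked against a WS220 genome. Replicate 2 began at 50793. The series-wide list began with a peak from 1 to 233 and ended with one from 17493477 to 17493830.

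Most shared domains matched replicate 2 peak for peak. Of the 667, 473 (70.9%) met a single replicate 2 peak that met no other domain. Another 164 (24.6%) shared their replicate 2 peak with a neighbour, 13 (1.95%) met several replicate 2 peaks and 17 (2.55%) did both. Among replicate 2 peaks, 605 of 966 (62.6%) met a domain, beside 61.1% on the other 5 nuclear chromosomes. On IV 85 replicate 2 peaks met 2 or more domains, with 4 at most. Domains of 5 to 10 kb were one to one in 64.9% of cases and those over 10 kb in 50%, against 76.7% of those up to 1.5 kb.

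In the one-to-one pairs the replicate 2 peak was mostly the longer. Its median width was 2636 bp, against 2027 bp in replicate 1, and it was longer in 350 of 473 pairs. It began a median of 120 bp further left and ended a median of 85 bp further right. Starts lay within 100 bp of each other in 152 pairs (32.1%) and within 500 bp in 343 (72.5%), and ends in 157 (33.2%) and 358 (75.7%). Spearman's rho of the widths was 0.75 (Pearson's r 0.80, n = 473 pairs).

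**Figure D5:**
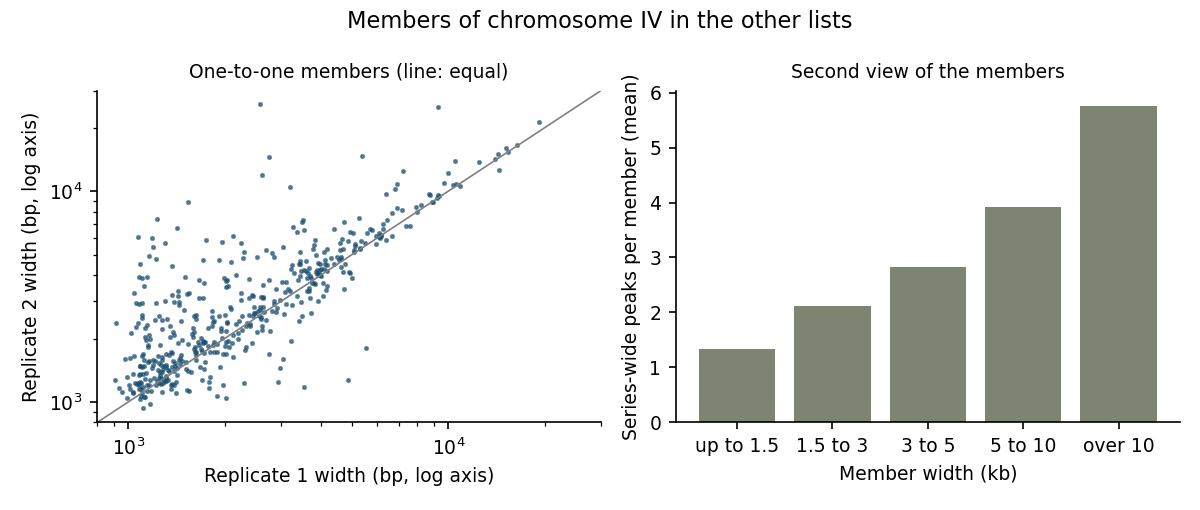
Left: width of each of 473 one-to-one domains in replicate 1 and replicate 2 (points, log axes, bp), with a line of equal widths. Right: mean number of series-wide peaks met by a shared domain, by domain width in kb (bars). Most points lie above the line, and the mean number, not scaled to length, grows with width, from 1.33 to 5.75.

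The series-wide list resolved the domains into shorter pieces. The mean was 2.35 series-wide peaks for each domain, the median 2 and the highest 12. There were 259 domains (38.8%) that met 1, 194 that met 2 and 212 (31.8%) that met 3 or more. By width, the mean was 1.33 for domains up to 1.5 kb and 5.75 for those over 10 kb. A wider domain has more room for such peaks, and these means are not scaled to length. Within a domain, neighbouring series-wide peaks lay a median of 139 bp apart (interquartile range 69 to 250 bp, n = 903 gaps). They covered 74.6% of all domain bases, and their share of a domain grew from a median of 56.4% up to 1.5 kb to 90.8% over 10 kb. Their midpoints were most frequent in the middle 20% of a domain (29.6% of 1474 midpoints, 15.1% in the leftmost 20% of its length and 14.2% in the rightmost). In domains over 5 kb this central weight was absent, with 22.3%, 18.8%, 22.8%, 16.2% and 20.0% from left to right.

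The domains that met most series-wide peaks were not the widest. The one from 10379047 to 10388594 (9548 bp) met 12, the one from 6102697 to 6110340 (7644 bp) met 11, and the one from 4170052 to 4180645 (10594 bp) met 10. The last was drawn as 3 peaks in replicate 2. The domains that begin at 4246728, 5599724, 7908846, 9989053 and 10858510 also met 10 each. Only 2 domains met none, those from 7544231 to 7546086 and from 14108177 to 14109466. They overlapped replicate 2 over 36.3% and 14.0% of their length.

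Peaks found in a single replicate were spread along chromosome IV in different ways. The 68 replicate 1 peaks without a counterpart were denser on the left, with 45 left of the midpoint and 23 right of it, and 39 of them (57.4%) lay in the first 5 Mb, which is 28.6% of the length. The 361 replicate 2 peaks without a counterpart stood at 21.3 per Mb on the left and 20.0 on the right, with 29.1% in the first 5 Mb. Shared domains had 33.1% there, all replicate 1 peaks 35.4% and all replicate 2 peaks 32.6%. On IV 90.7% of replicate 1 and 62.6% of replicate 2 peaks had a counterpart, beside 88.3% and 61.1% on the other 5 nuclear chromosomes. Matched peaks were wider than the unmatched ones of their list, with medians of 2074 against 1556.5 bp in replicate 1 and 2991 against 1383 bp in replicate 2. A wider peak meets the overlap rule more easily, so this order follows in part from the rule that made the groups. Series-wide peaks met 65 of the 68 and 314 of the 361.

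A few unmatched peaks were broad. In replicate 1 the widest ran from 11607475 to 11619324 (11850 bp) and met 14 series-wide peaks, more than any shared domain, although the nearest replicate 2 peak lay 2148 bp away. The next 4 ran from 9624849 to 9635996 (11148 bp), from 9203494 to 9213388 (9895 bp), from 4127857 to 4135897 (8041 bp) and from 4407986 to 4413889 (5904 bp). In replicate 2 the widest were the peak of 10286 bp from 12818501 to 12828786 and that of 8128 bp from 3854290 to 3862417, both in long stretches without a shared domain. They were followed by peaks from 2322627 to 2329979 (7353 bp), from 8827646 to 8834773 (7128 bp) and from 6982184 to 6989269 (7086 bp). All 10 of these peaks met at least 3 series-wide peaks.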

How the data were processed

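Positions of the first and last base of each peak came from 3 deposited lists, one for each ChIP replicate and one for the whole series. The caller was MACS for the replicates and MACS v2 for the series-wide list, as the authors wrote on each line of those lists. The submitters' processing notes name BWA and the build ce10. The build of the lists is WormBase WS220, per the file headers. Which control was used, which reads were filtered and how the series-wide list combined the replicates: not given in the sources used here. A stricter or looser call changes the number, width and breaks of peaks. The score that the authors deposited beside each peak was not used.

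Counts, widths and gaps were computed from 1-based positions in Python (3.11.15) with scipy 1.17.1, pandas 2.3.3 and numpy 2.4.6; matplotlib 3.10.9 drew the figures. Chromosome length was the last listed base of any list. Peaks were placed by midpoint, and gaps run from the end of a peak to the start of the next. The functions were tested on constructed lists. Regions named are the 10 widest domains, the 10 longest empty stretches, the 5 richest and 5 poorest windows (ties by position), the 5 largest clusters, the 5 widest unmatched peaks of each replicate, the 3 domains with most series-wide peaks, the ends, and those nearest the overlap rule; others were chosen after their values were seen. The domains, lists and rules were chosen with earlier results of these data known.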

Additional observations from a re-analysis of the deposited data

Results flagged for a closer look

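On chromosome IV, 600 of 3221 series-wide peaks (18.6%) met neither replicate list and so fell outside the comparisons of shared domains. Whether these peaks mark polymerase was not tested, and the share on other chromosomes is not given here. They were narrow, with a median width of 232 bp, against 588 bp for those that met a shared domain, and 7 were wider than 1 kb. They lay mostly on the left: 415 left of the midpoint and 185 right of it, and 357 (59.5%) in the first 5 Mb. The whole series-wide list also leaned left, with 1830 peaks left of the midpoint and 1391 right of it, and 39.4% in the first 5 Mb. The widest ran from 3049028 to 3051186 (2159 bp), from 3040932 to 3042995 (2064 bp) and from 2828616 to 2830625 (2010 bp). In the longest stretch without a shared domain, 7 series-wide peaks were listed, 6 of which met neither replicate. That stretch held no replicate 1 peak and 1 replicate 2 peak, so this follows in part from how it was chosen.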

How the results depend on the processing

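Of 77 alternative values, 39 stayed near the reported ones and 38 moved. Near meant a difference below the standard deviation of the values of the 2 replicates. For empty stretches it meant a fixed fold limit, and for the share of matched peaks a binomial interval. A standard deviation of 2 values is imprecise, so the split is a rough guide. All 23 alternatives for the contrast of the sides and for the gradient kept the direction reported, more on the left. They draw on the same lists and are not independent of each other. The log2 ratio of left to right was 0.28 for replicate 2 peaks that overlap replicate 1, 0.21 to 0.26 for each replicate alone, 0.40 for the series-wide list, 0.53 for the first against the last 25% of the length and 0.071 for covered bases. Spearman's rank correlation with position was -0.38 to -0.31 for each replicate alone, -0.44 for the series-wide list, -0.39 with 500 kb and -0.18 with 100 kb windows, -0.19 for covered bases, and -0.15 and -0.25 without the last and the first 10 windows, which were left out after the data were seen. When each peak had to cover at least 50% of the other, 63.0% of replicate 1 peaks were kept, at 26.5 per Mb, with a median width of 2461 bp, a median gap of 16444 bp and 21.6% in clusters. Replicate 2 peaks that overlap replicate 1 had a median width of 2991 bp and gap of 9969 bp. Each replicate alone gave 42.0 to 55.2 peaks per Mb, widths of 2023 to 2070 bp, gaps of 3474 to 6408 bp, 42.3% to 56.6% in clusters and a variance of 1.97 to 2.68 times the mean. The series-wide list gave 184 peaks per Mb, a median width of 355 bp, a median gap of 526.5 bp, 90.7% in clusters, 60 empty stretches and a variance of 11.6 times the mean. The median width was 2269.5 bp with domains less than 200 bp apart merged and 1812.5 bp for blocks covered in both lists. In clusters were 21.9% with gaps up to 2 kb, 56.1% up to 10 kb and 15.0% with 5 or more domains. Empty stretches numbered 189 from 25 kb and 25 from 100 kb. Counted by midpoint, 2.21 series-wide peaks fell in a domain. The causes of these shifts were not tested. No paired analysis was possible because only the ChIP replicates were analysed and no result comes from a test. Depth is unknown, so a missing peak does not show that polymerase was absent.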

Other observations

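Some one-to-one domains of chromosome IV were drawn at very different lengths in the replicates (chosen after their values were seen). The longest replicate 2 peak among these ran from 5968929 to 5994936 (26008 bp) and met a single replicate 1 peak of 2585 bp (5972386 to 5974970). Another ran from 8073397 to 8087836 (14440 bp) over a replicate 1 peak of 2761 bp (8082470 to 8085230), and its left neighbour, 8904 bp in replicate 2, was 1532 bp in replicate 1. In the other direction, the domain from 12478814 to 12483676 was 4863 bp wide in replicate 1 and 1270 bp in replicate 2.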
